A study of Nasonia vitripennis with 51 samples.

Results

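Isolated methylated CpGs of the parasitoid wasp Nasonia vitripennis were examined in whole-genome bisulphite sequencing of heads and bodies. A CpG was a member when its mean level over the 18 sucrose samples was at least 50% and no other CpG at 50% or more lay within 1000 bp on the same sequence. The members were therefore selected on their measured sucrose levels and on those of their neighbours. The rule found 850 members. They were 5.26% of the 16171 CpGs at or above 50%, and 0.0207% of the 4108057 CpGs with reads in every sucrose sample. The other 15321 methylated CpGs, which had at least 1 such partner within 1000 bp, are called clustered here.

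The 51 samples were pools of 10 wild-type females of the AsymC strain, a line cured of the bacterium Wolbachia, divided into 24 head samples and 27 samples of thorax and abdomen (bodies). Females took 20% sucrose for 24 h (18 samples), or 20% sucrose with 10 µM 5-aza-2'-deoxycytidine (5-aza-dC), an inhibitor of DNA methyltransferases, for 24 h (16 samples) or for 48 h (17 samples). The 24 h and 48 h samples below are those fed 5-aza-dC for that long. Each regime was harvested 0, 24 and 48 h after feeding, which gave 18 groups, 15 of 3 samples and 3 of 2 samples. No sucrose group was fed for 48 h, so the longer regime differed from sucrose in feeding time as well as in the drug. Whole heads and bodies mix cell types, so a level between 0 and 100% is a mean over cells as well as over females.

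In Nasonia, as in other Hymenoptera, DNA methylation is sparse and lies mainly in CpGs of the transcribed parts of genes, most of it near the 5′ end of broadly expressed genes. Methylated CpGs usually stand in runs, and CpGs outside these runs are mostly unmethylated. The maintenance enzyme Dnmt1 copies the mark onto the new strand after replication. A methylated cytosine can deaminate to thymine, so sequence that is methylated in the germ line tends to lose CpGs over evolution. 5-aza-dC is built into DNA during replication and traps the enzyme there.

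Total reads over the listed CpGs ranged from 10955117 to 200008536 per sample. Mean coverage of a member was 20.0 reads in the sucrose samples (median over members), against 24.8 for clustered CpGs, and 10 members were under 10 reads. In single 5-aza-dC samples the mean over members lay between 4.42 and 53.7 reads. The table listed a CpG in a regime with at least 3 reads in every sample of it or not at all. Of the 850 members, 768 (90.4%) had reads in the 24 h samples, 132 (15.5%) in the 48 h samples and 50 in both. Of clustered CpGs 88.6% had reads at 24 h and 27.4% at 48 h. Of all CpGs with sucrose reads the shares were 81.9% and 43.6%. At 48 h members were thus listed less often than either, and the 132 and the 50 may not represent the rest. A batch of libraries or processing that followed the regimes cannot be told apart from them. The labels do not say whether the heads and bodies of a group came from the same females, and the tests treated them as independent.

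The members lay on all 5 chromosomes and on 105 unplaced sequences. Chromosome 1 held 154, chromosome 2 held 167, chromosome 3 held 122, chromosome 4 held 84 and chromosome 5 held 40, and 283 lay on unplaced sequence. Isolated CpGs were between 4.07% (chromosome 3) and 6.93% (chromosome 4) of the methylated CpGs of a chromosome. The most on an unplaced sequence were 23, on GL341020. Positions are those of the table, whose genome build is not given in the sources used here. Gene context and flanking bases were not analysed here.

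Distance to the nearest other methylated CpG had a median of 3477 bp. It ran from 1002 bp to 356241 bp, and its quartiles were 1839 and 8051 bp. The next methylated CpG stood within 2000 bp of 230 members, just past the limit of the rule. It stood over 50000 bp away from 44 members, and 31 were the only methylated CpG on their sequence. The 3 farthest were position 170335 of GL340989 (356241 bp), position 23930478 of chromosome 1 (349196 bp) and position 14723258 of chromosome 4 (261240 bp). All 3 were well methylated, with sucrose levels of 94.0%, 78.7% and 89.4%. They kept 93.6%, 79.0% and 88.9% in the 5-aza-dC samples that covered them. None of the 3 had another listed CpG within 1000 bp.

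That last point held for many members. Within 1000 bp a member had a median of 2 listed CpGs, a clustered methylated CpG 20 and any CpG with sucrose reads 65. No CpG at all was listed within 1000 bp of 299 members (35.2%), against 0.0685% of all CpGs with sucrose reads. A further 296 members had 1 to 9 listed neighbours, and 255 had 10 or more. For the 299, isolation rests on the absence of any listed CpG: a stretch without CpGs and a stretch whose CpGs were left out of the table cannot be told apart here. Their nearest listed CpG was a median of 1437 bp away and at most 7056 bp, and 2 were the only CpG listed on their sequence.

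Sparse surroundings were also where methylation was most frequent. Of the 2815 CpGs with no listed neighbour, 10.6% were at 50% or more. The share was 4.40% of CpGs with 1 to 9 listed neighbours, 1.15% with 10 to 29, 0.344% with 30 to 59 and 0.0616% with 60 or more. Every step toward denser listing thus went with a lower share methylated. Of methylated CpGs with neighbours, the isolated share also fell, from 6.58% at 1 to 9 listed neighbours to 0.640% at 60 or more. These shares come from the sucrose levels that chose the members and carry no test.

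Where neighbours were listed, they were mostly unmethylated, but less so close by. CpGs 1 to 10 bp from a member had a mean sucrose level of 29.0% (20 neighbours). The mean was 18.9% at 11 to 50 bp (235 neighbours), 12.4% at 51 to 100 bp (270), 5.17% at 101 to 300 bp (810) and 2.27% at 301 to 1000 bp (6225). Around clustered CpGs it was 81.0% at 1 to 10 bp and 13.9% at 301 to 1000 bp. The rule caps every neighbour of a member under 50%, so the gap to clustered CpGs is built in. The cap does not set the decline with distance among the members' own neighbours. The distances hold different members, however: 19 had a neighbour at 1 to 10 bp and 442 at 301 to 1000 bp. A member with many listed neighbours also counts many times, and densely listed surroundings were the least methylated. The part of this in the decline was not tested. Of the 551 members with a listed neighbour, 206 (37.4%) had one at 20% or more. The members thus include CpGs at the centre of a short partly methylated stretch.

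The decline over these pooled distances was also present in samples the rule did not use. In the 24 h 5-aza-dC samples the members' neighbours stood at 28.3% at 1 to 10 bp (17 neighbours), 19.3% at 11 to 50 bp (203), 14.2% at 51 to 100 bp (233), 5.90% at 101 to 300 bp (619) and 2.85% at 301 to 1000 bp (4588). The same neighbours in sucrose had 29.9%, 19.1%, 13.1%, 5.10% and 2.29%. The background level, given below, was also higher at 24 h than in sucrose.

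**Figure D1:**
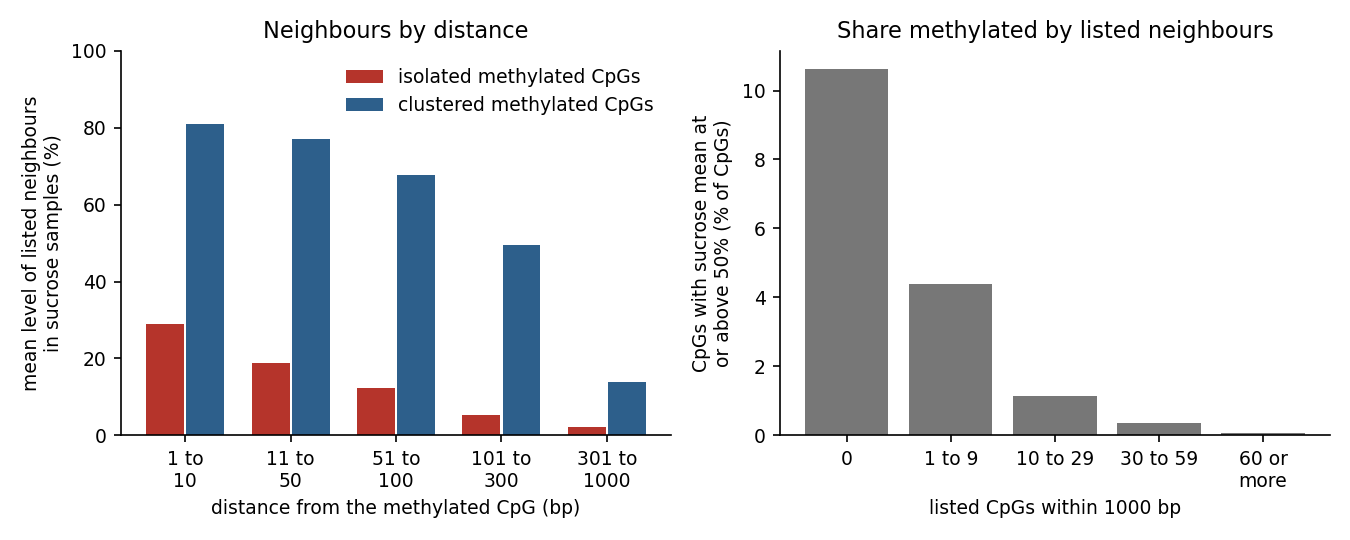
Left, mean sucrose level (%) of listed CpGs by distance (bp) from isolated (red) and clustered (blue) methylated CpGs; right, share (%) of all CpGs with sucrose reads that were at 50% or more, by number of listed CpGs within 1000 bp. Neighbours of isolated CpGs fall from 29.0% at 1 to 10 bp to 2.27% at 301 to 1000 bp, and the share methylated falls from 10.6% with no listed neighbour to 0.0616% with 60 or more.

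The strictest isolation was seen at 96 members that had 10 or more listed neighbours and none at 10% or more. Their mean sucrose level was 78.9%, the same as that of all members, and they ran from 50.1% to 98.6%. Of the 83 with 24 h reads, 81 stayed at 50% or more, with a mean of 79.2%. The members of this kind with the most listed neighbours, picked after their values were seen, were position 3857178 of GL341022, position 1863723 of chromosome 3 and position 32976569 of chromosome 1. The first had 110 listed CpGs within 1000 bp, the highest of them at 7.69%, and stood itself at 85.9% in sucrose. The second had 92 neighbours, up to 9.82%, and stood at 84.8%. The third had 68, up to 6.09%, and stood at 92.3%. The nearest listed CpG stood 285 bp from the first, 95 bp from the second and 334 bp from the third, so nothing closer was measured. Single CpGs with a high level whose listed neighbours were all under 10% were therefore present.

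Members were methylated a little less than clustered CpGs. Their mean sucrose level was 78.9% and their median 81.9%, against a mean of 84.0% and a median of 88.0% for clustered CpGs. A level of 90% or more was reached by 231 members (27.2%) and by 41.5% of clustered CpGs. Members with no listed neighbour had a mean of 81.8%, those with 1 to 9 had 77.8% and those with 10 or more had 76.6%. Mean sucrose coverage hardly differed between these classes, with medians of 19.8, 19.0 and 21.3 reads. All these values chose the members and are given as a description.

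At the limit of the rule, few CpGs decided the count. Only 11 members lay between 50 and 51%, and 6 isolated CpGs between 49 and 50%. Just inside were position 26654 of ChrUn_0325 (50.03%) and position 171640 of GL340966 (50.07%). Just outside were position 278437 of GL340812 (49.97%) and position 28357698 of chromosome 1 (49.74%). In the 24 h samples the first 2 stood at 36.6% and 59.9% and the other 2 at 52.4% and 42.8%. The pairs on either side of the limit thus overlapped in samples the rule did not use.

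The level carried over to the 5-aza-dC samples, which played no part in the choice. Of the 768 members with 24 h reads, 732 (95.3%) were again at 50% or more (734 with head and body means weighted equally), and 705 (91.8%) met the whole rule there. In the 48 h samples 123 of 132 (93.2%) were at 50% or more and 115 (87.1%) met the whole rule. A methylated partner can be missing from a regime's list, above all at 48 h, where 27.4% of clustered CpGs had reads. Isolated CpGs were 6.24% of the methylated CpGs at 24 h and 10.3% at 48 h, against 5.26% in sucrose. Meeting the whole rule can thus rest on what was listed. Clustered CpGs were at 50% or more in 98.1% and 97.9% of cases. Across members, Pearson's r between the sucrose level and the level in the other regime was 0.917 at 24 h (768 CpGs) and 0.910 at 48 h (132 CpGs). These are correlations across CpGs of the same libraries, and CpGs are not replicates.

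Mean levels over members were close in all regimes. With head and body means weighted equally, since the 5-aza-dC regimes have fewer head samples, the 768 members stood at 78.8% in sucrose and 79.3% in the 24 h samples, a mean change of 0.48 points. The 132 members stood at 78.9% in sucrose and 79.4% in the 48 h samples, a mean change of 0.51 points. Clustered CpGs changed by 0.43 and 0.47 points. Averaged over samples, with their unequal tissue mix, the members' changes were 0.0154 and 0.292 points. By tissue, the 24 h mean was above sucrose by 0.24 points in heads and 0.78 points in bodies, and the 48 h mean by 0.37 points in heads and 0.75 points in bodies. Each of these 4 differences was smaller than the SD between samples of the groups compared. With each sample's whole background level subtracted they were -0.47 and 0.30 points at 24 h and -1.01 and -1.53 points at 48 h. By this, 3 of the 4 changed sign, and the last exceeded its SD of 1.01 points. If the background is error, this takes off too much, since error can add only to the unmethylated share of a member's reads. No loss of methylation is read from the subtracted values. Since sucrose levels chose the members, no test was made of the 4 differences.

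Single members moved in both directions. With the tissues weighted equally, 313 of 768 (40.8%) were lower in the 24 h samples than in sucrose, and the change ran from -29.3 to 28.3 points, with 90% of members between -9.61 and 8.65. It was over 20 points in either direction at 12 members, 10 of which had sucrose levels of 50 to 70%. In the 48 h samples 54 of 132 were lower and 3 moved by over 20 points. The widest movement was thus among members of intermediate level, where counting error is also largest.

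The lowest 5-aza-dC means belonged to members near the limit. Position 146110 of GL340974 had sucrose levels from 11.1 to 80% in heads (median 50%) and from 40 to 90% in bodies (median 52.9%). In the 24 h samples it ran from 0 to 50% in heads (median 27.3%) and from 0 to 29.2% in bodies (median 11.1%). The body groups of the 2 regimes did not overlap there, while the head groups did. The choice of this position as lowest in 5-aza-dC, from members at 50% or more in sucrose, favours such a gap. The 3 samples of this position at 0 had 4, 8 and 6 reads. A rough upper limit, 3 divided by the reads, gives 75%, 37.5% and 50%, and is too high at so few reads. Position 11663 of GL341015 went from a mean of 51.5% to 29.2%, and its samples overlapped between regimes. The third of the lowest, position 211617 of GL341044, is described with the tissue results.

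The highest 5-aza-dC means were all at members without a listed neighbour. Position 2183 of GL341249 stood at 99.5%, position 115759 of GL340940 at 99.1% and position 9835966 of chromosome 3 at 98.9%, over 16 samples each. At the first, all 7 head samples of 24 h were fully methylated and 1 of 9 body samples had an unmethylated read. Their sucrose means were 94.3%, 97.7% and 97.8%.

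**Figure D2:**
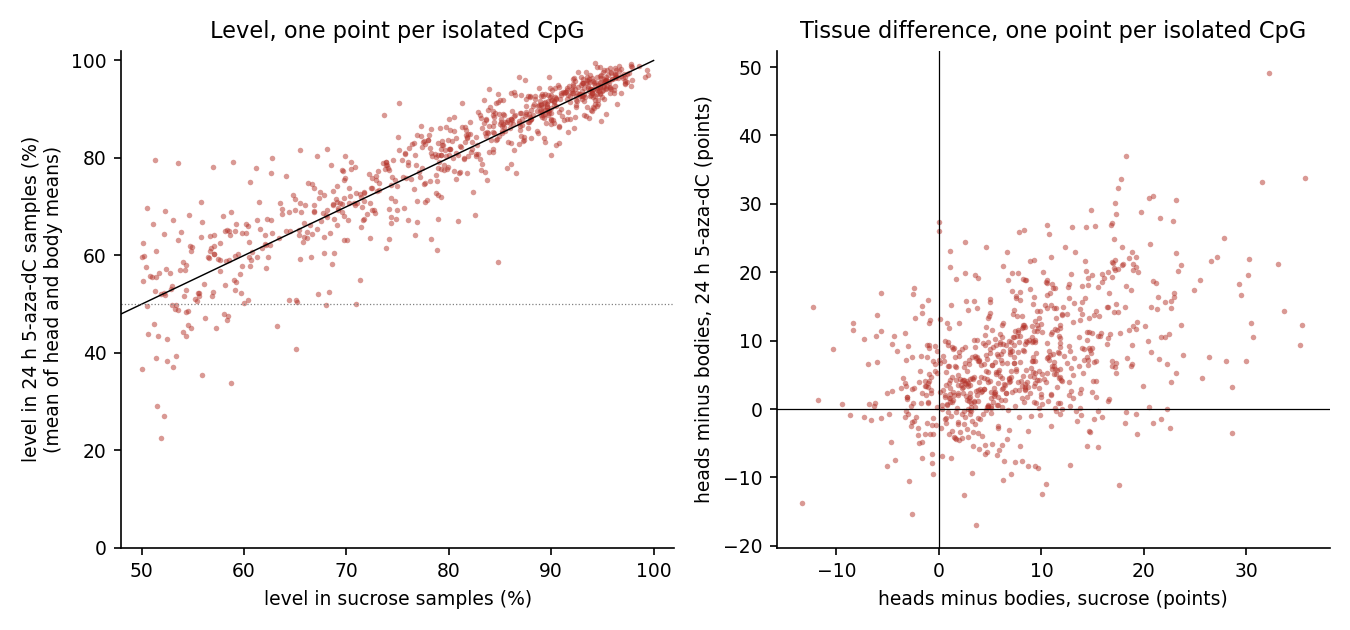
Each point is an isolated CpG with reads in the 24 h samples (768 CpGs). Left, its level (%) in 24 h 5-aza-dC samples against sucrose, with the line of equality and a dotted line at 50%. Right, its head minus body difference (points) in the same regimes, from the means over head and over body samples. With differences averaged over harvest times instead, 635 of the 768 were above 0 at 24 h.

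The background level differed more between regimes than the members did. Conversion errors, calling errors and low methylation cannot be told apart in it. It was read from 873968 CpGs under 2% in sucrose. Their mean was 0.65 ± 0.23% in sucrose heads (SD, 9 samples) and 0.71 ± 0.27% in sucrose bodies (9 samples). It was 1.33 ± 0.57% (7 samples) and 1.18 ± 1.06% (9 samples) at 24 h, and 1.91 ± 0.82% (8 samples) and 2.98 ± 2.89% (9 samples) at 48 h. These CpGs were chosen as low in sucrose, so some of the rise is set by that choice. Its part in the members' values was not tested except by the alternatives given with the tests.

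Between samples of a regime and tissue, a member's level spread about as far as that of clustered CpGs once coverage is allowed for. The median SD over members was 9.07 points in sucrose heads, 11.0 in sucrose bodies, 10.5 in 24 h heads, 12.3 in 24 h bodies, 8.00 in 48 h heads and 11.2 in 48 h bodies. Counting alone would give a median SD of 7.71, 9.77, 9.90, 11.1, 7.49 and 10.9 points. The ratio of the SD to the counting SD, as root mean squares over members, lay between 1.18 and 1.38. For clustered CpGs it lay between 1.18 and 1.37, so in neither class was sampling of reads the whole of the spread.

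The spread depended on the level. In sucrose heads, members at 50 to 70% had a median SD of 15.3 points, those at 70 to 90% 10.9 points and those at 90% or more 5.78 points. The matching counting SDs were 11.1, 8.75 and 5.29 points. The ratio to the counting SD was 1.44 at members of 50 to 70% and 1.23 at those of 90% or more. It was 1.28 and 1.18 in 24 h heads, where members of 70 to 90% had 1.31, and 1.32 and 1.30 in 48 h bodies. In 24 h bodies it was 1.23 and 1.04. At members of 90% or more there, the median SD of 6.06 points lay below the median counting SD of 6.95. The same order held in 24 h heads (5.79 against 6.49) and 48 h bodies (6.13 against 6.40). At clustered CpGs of 90% or more in sucrose heads the ratio was 1.16.

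Heads were more methylated than bodies at the members in every regime. The mean over members was 82.9 ± 0.83% in the 9 sucrose head samples, which ran from 81.2 to 84.3% (median 83.0%). It was 74.8 ± 0.83% in the 9 sucrose body samples, which ran from 73.8 to 76.5% (median 74.9%). At 24 h it was 83.0 ± 0.71% in 7 head samples (82.0 to 84.1%, median 83.0%) and 75.5 ± 1.61% in 9 body samples (73.5 to 78.4%, median 75.2%). At 48 h it was 83.1 ± 1.82% in 8 head samples (81.6 to 86.1%, median 82.3%) and 75.7 ± 1.17% in 9 body samples (73.3 to 77.7%, median 75.8%). No head sample overlapped a body sample of its regime.

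The mean difference between heads and bodies was 8.11 points in sucrose, 7.53 points at 24 h and 7.54 points at 48 h. At clustered CpGs it was 6.89, 6.85 and 6.23 points. At 24 h, 635 of 768 members (82.7%) were higher in heads, and so were 85.3% of clustered CpGs. The difference also varied with level. Within members of 50 to 70% the 24 h difference was 10.4 points, within 70 to 90% it was 8.39 and at 90% or more it was 3.04, against 11.6, 8.65 and 3.26 points at clustered CpGs of the same level. At 48 h the members had 7.79, 9.91 and 3.61 points and clustered CpGs 9.64, 7.98 and 3.21. In sucrose they had 10.7, 9.64 and 2.95 points against 11.3, 8.97 and 3.11. At 50 to 70% the members thus stood below clustered CpGs in every regime. In the other level classes they stood below them in some regimes and above them in others. Whether isolated and clustered CpGs differ in this was not tested.

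The tissue difference was of similar size whatever the number of listed neighbours. At 24 h it was 6.90 points at members with no listed neighbour, 7.86 points with 1 to 9 and 7.91 points with 10 or more. At the 83 strictly isolated members it was 7.99 points, and 73 of them were higher in heads. It also kept its direction at each harvest time. In sucrose the difference was 9.12, 8.05 and 7.17 points at 0, 24 and 48 h, and after 24 h of 5-aza-dC it was 8.40, 6.65 and 7.53 points.

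**Figure D3:**
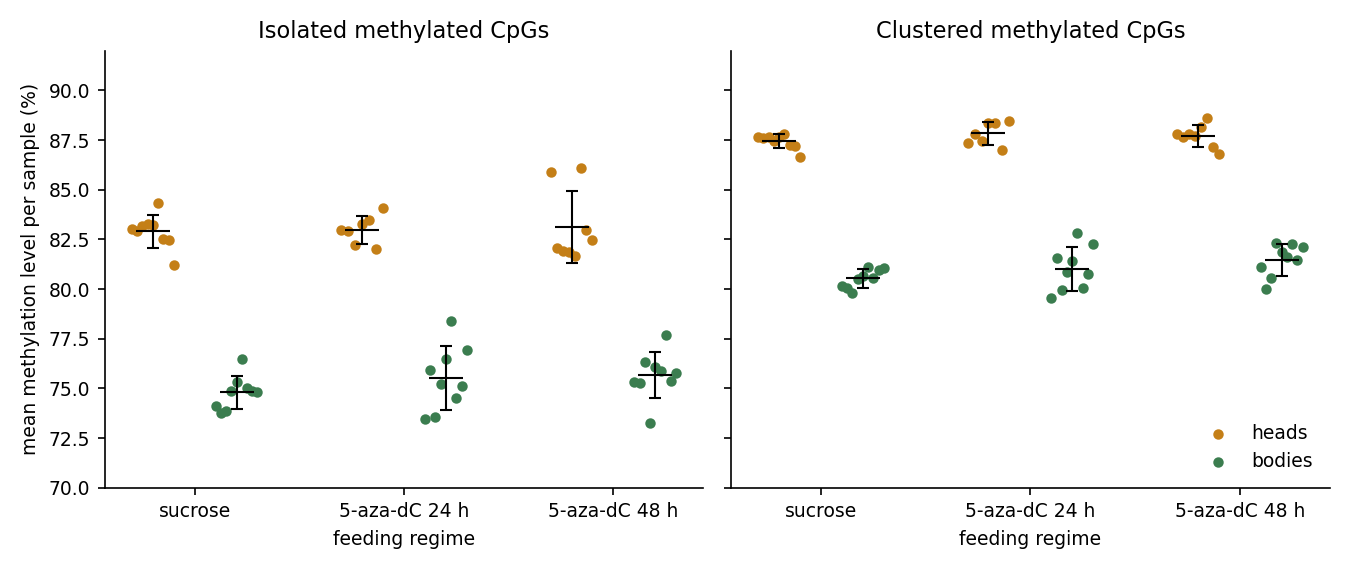
Mean methylation level (%) over isolated (left) and clustered (right) CpGs, one point per sample, by feeding regime, in heads (orange) and bodies (green); bars are the mean ± SD and the vertical axis starts at 70%. In each regime every head sample lies above every body sample.

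Tissue differences of single members recurred in part. Across 768 members, Pearson's r of the head minus body difference between sucrose and 24 h samples was 0.441, and across 132 members it was 0.432 between sucrose and 48 h samples. The 60 members over 20 points higher in sucrose heads, with 24 h reads, had a median of 14.7 points there, and 56 of them were higher in heads again. The 23 members over 5 points lower in sucrose heads had a median of 4.26 points at 24 h, and only 7 were lower again. Members chosen as extreme in one set of samples are less extreme in the next by that choice alone, and these values are descriptive. Of the 50 members with reads in all regimes, 33 were higher in heads in all 3 and 2 were lower in all 3.

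Heads and bodies were then tested CpG by CpG in the 5-aza-dC samples, with a quasi-binomial logistic model of the read counts and a Benjamini-Hochberg threshold of 0.05 over all tested CpGs. Over the 33 samples of both regimes, 50 members could be tested among 13101 CpGs. Heads were higher at 13 members (26%) and lower at 1. The 14 calls became 3 when CpGs from a sucrose mean of 2% were tested, 6 without the 6 body samples of uncertain harvest time and 6 with limma. Over all tested CpGs heads were higher at 6.33% and lower at 0.374%. Among the 2446 clustered CpGs tested, 756 (30.9%) were higher and 12 were lower, so the members' share lay near that of clustered CpGs and above that of all CpGs, most of which are little methylated. The median difference was 6.57 points over the 50 members, 5.05 points over clustered CpGs and -0.16 points over all tested CpGs.

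The 13 members with higher levels in heads are represented by the 6 with the largest difference. Position 2799737 of chromosome 4 ran from 87.9 to 100% in 24 h heads (median 95.8%) and from 66.7 to 95% in 24 h bodies (median 73.3%). In 48 h heads it ran from 82.1 to 100% (median 98%) and in 48 h bodies from 50 to 89.7% (median 76.9%). The groups overlapped at the edges, with 5 of 7 and 6 of 8 head samples above every body sample. The difference was 19.9 points (log odds 1.40 ± 0.27 SE, adjusted p = 0.00048, quasi-binomial model). It kept its call under every alternative run, with adjusted p between 9.3e-05 and 0.00702. Its sucrose means were 86.3% in heads and 70.2% in bodies.

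Position 15334660 of chromosome 2 was higher in heads by 14.7 points (adjusted p = 0.00184, quasi-binomial model) and also kept its call throughout, with adjusted p between 0.000378 and 0.0397. Its head medians were 88.9% at 24 h and 89.3% at 48 h, and its body medians 71.1% and 74.1%. The other 4 were position 11120288 of chromosome 3 (17.7 points), position 14315838 of chromosome 1 (17.1 points), position 1354740 of GL341021 (17.0 points) and position 2739846 of GL341044 (15.0 points). Their adjusted p-values by the same model were 0.0226, 0.0220, 0.0147 and 0.0384, and each lost its call under some alternative, with the highest at 0.222, 0.217, 0.159 and 0.315. Head and body samples overlapped at all 4. At the chromosome 1 position, sucrose heads (mean 68.3%) were not above sucrose bodies (70.8%).

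The member lower in heads was position 211617 of GL341044, which was also among the lowest in 5-aza-dC level. In 24 h heads it ran from 15.4 to 50% (median 20%) and in 24 h bodies from 0 to 58.3% (median 32.3%). In 48 h heads it ran from 0 to 37.1% (median 25%) and in 48 h bodies from 22.2 to 53.8% (median 40%). The groups overlapped in both regimes. The difference was -10.5 points (adjusted p = 0.0407, quasi-binomial model), and adjusted p reached 0.326 under an alternative. In sucrose its heads had a median of 60% and its bodies of 43.8%, which is the opposite order. Only 4 listed CpGs stood within 1000 bp of it, and the next methylated CpG was 45172 bp away.

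The test over 33 samples reached few members because most had no reads at 48 h. A test in the 16 samples of 24 h alone, added after that was seen, reached 760 members among 52727 CpGs. Heads were higher at 15 members (1.97%) and lower at none. The background was 1.14% higher and 0.00759% lower over all tested CpGs, and 539 of 13551 clustered CpGs (3.98%) were higher. At an unadjusted p under 0.05 stood 249 members (32.8%), 38.0% of clustered CpGs and 15.0% of all tested CpGs. The count of 15 is fragile: without 1 sample it was 10 (replicate 2 of the 0 h bodies) or lower (each of the other 15 samples, down to 0), limma called 2, and it was 0 with background as a covariate or without the 3 body samples of the fit whose titles and characteristics do not give the same harvest time. By direction alone, 629 of the 760 members were higher in heads. In the 17 samples of 48 h, 131 members were tested and none was called, by the quasi-binomial model or by limma. An unadjusted p under 0.05 by that model was reached by 42 members (32.1%), 33.0% of clustered CpGs and 12.1% of all tested CpGs. There 0.394% of 25412 CpGs were higher in heads and 0.00787% were lower, and 115 of the 131 members had a higher mean in heads.

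The largest differences of the 24 h test were at 6 members plotted as A to F. At A, position 20980470 of chromosome 3, 24 h heads ran from 76.5 to 100% (median 88.9%) and bodies from 0 to 75% (median 43.2%), with no overlap. The body sample at 0 had 3 reads, so its level was poorly known. The difference was 49.3 points (log odds 2.07 ± 0.38 SE, adjusted p = 0.0312, quasi-binomial model). In sucrose, heads ran from 64.3 to 100% (median 87.5%) and bodies from 38.9 to 69.0% (median 54.5%), and 8 of 9 heads stood above every body.

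At B, position 1067296 of chromosome 2, 24 h heads ran from 67.5 to 100% (median 76.5%) and bodies from 28.6 to 61.5% (median 40%). At C, position 24912621 of chromosome 2, heads ran from 65.2 to 100% (median 76.9%) and bodies from 27.3 to 57.6% (median 47.4%). Neither pair of groups overlapped. The quasi-binomial differences were 37.7 points at B (adjusted p = 0.0342) and 34.5 points at C (adjusted p = 0.0348). In sucrose the means were 64.0% in heads and 45.7% in bodies at B, and 78.3% and 42.6% at C.

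At D, position 4112865 of chromosome 2, heads had a median of 85.4% and bodies of 50%, and 6 of 7 head samples stood above every body sample. At E, position 10717384 of chromosome 1, the medians were 87.5% and 50%, and 5 of 7 head samples stood above every body sample. At F, position 6693913 of chromosome 3, 24 h heads ran from 84.6 to 100% and bodies from 40 to 100%, so the groups overlapped. The differences were 31.9, 28.6 and 27.3 points, with adjusted p of 0.0244, 0.0385 and 0.0348 by the quasi-binomial model. For A to F the highest adjusted p by that model or limma without 1 sample or under another setting lay between 0.263 (D) and 0.394 (E), so all 6 calls were lost under some alternative. Of the members, 1 was called in both the 24 h test and the test over 33 samples, and 28 in either. The test over 33 samples reached only 50 members, against 760 at 24 h, and it includes the 24 h samples. The overlap is therefore not read as recurrence or its absence, and it was not counted over all tested CpGs.

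**Figure D4:**
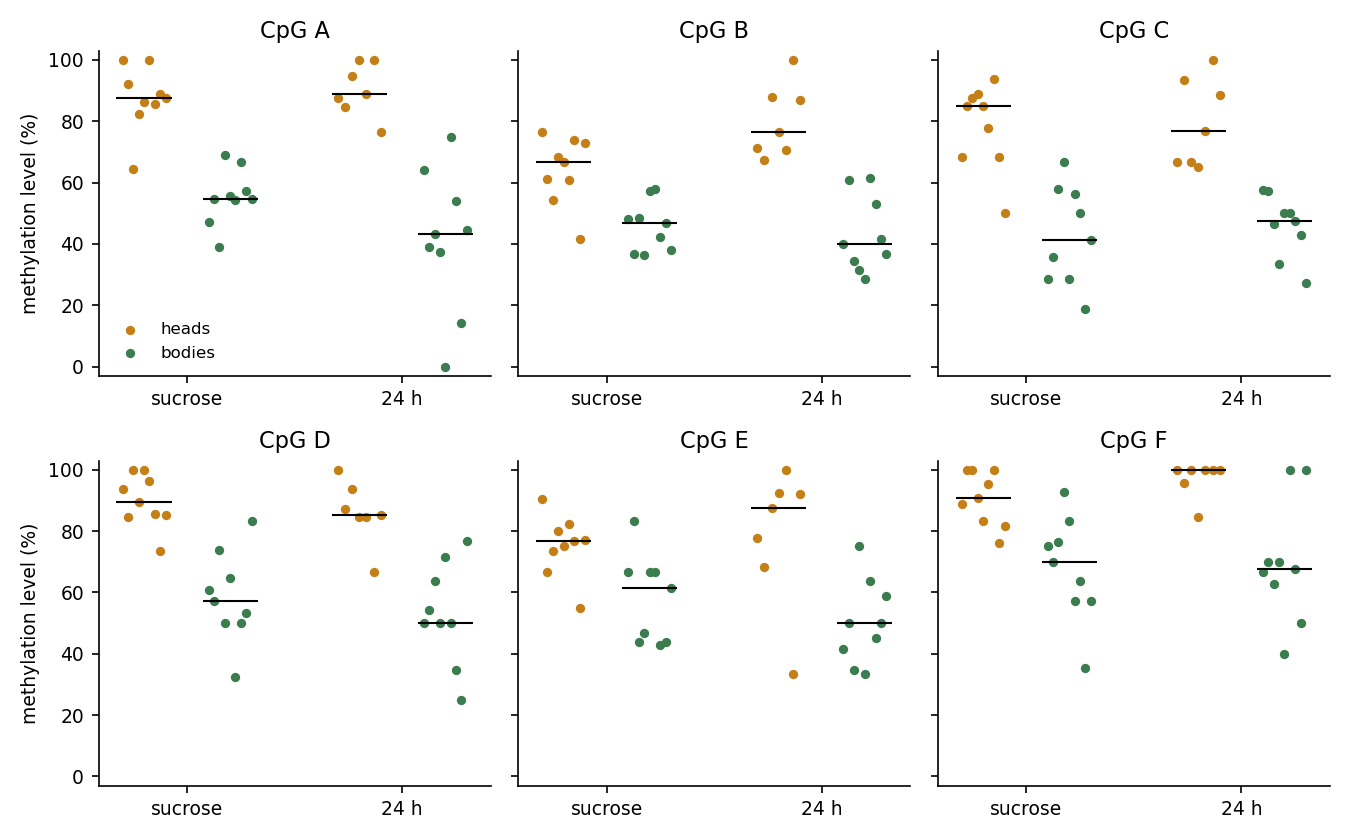
Methylation level (%) in each sample at the 6 isolated CpGs with the largest called head minus body difference in 24 h 5-aza-dC samples, in sucrose and 24 h samples, heads in orange and bodies in green; lines are medians. Heads and bodies do not overlap at 24 h in A, B and C, and the head median is above the body median in every panel and regime.

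The length of exposure was compared between the 24 h and 48 h regimes, within tissue and harvest time. Of the 50 members tested, 2 were higher after 48 h and none lower, against 0.702% higher and 0.382% lower over all 13101 CpGs and 34 higher and 20 lower of 2446 clustered CpGs. An unadjusted p under 0.05 was reached by 12 members (24%), 13.0% of clustered CpGs and 8.52% of all tested CpGs. The median difference was -0.12 points over members, 0.16 points over clustered CpGs and 0.71 points over all tested CpGs. Library batch and exposure cannot be told apart in this comparison.

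The larger of the 2 differences, plotted as G, was at position 1863723 of chromosome 3, the strictly isolated CpG with 92 listed neighbours. After 24 h its heads ran from 0 to 100% (median 55%) and its bodies from 33.3 to 80% (median 70%). After 48 h its heads ran from 85.7 to 100% (median 97.4%) and its bodies from 77.8 to 100% (median 88.9%). Body groups nearly separated, while 1 head sample of 24 h reached 100%, and the head sample at 0 had 3 reads. The difference was 34.8 points (log odds 2.17 ± 0.32 SE, adjusted p = 0.000111, quasi-binomial model), and adjusted p lay between 3.4e-05 and 0.00278 under the alternatives that tested it. In sucrose its heads had a median of 87.5% and its bodies of 85.7%, nearer to the 48 h than to the 24 h medians. The rule favours a high sucrose level, so which regime stands apart is not read from this. Depth at this CpG was low, with group medians of 10 to 15 reads.

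The other, plotted as H, was position 63681 of GL340838. After 24 h its heads had a median of 54.7% and its bodies of 50%, and after 48 h they had 82.9% and 76%. The groups overlapped in both tissues. The difference was 26.0 points (adjusted p = 0.0121, quasi-binomial model), and the call was lost without the 6 body samples of uncertain harvest time (adjusted p = 0.151) and when CpGs from a sucrose mean of 2% were tested (adjusted p = 0.0817). Its sucrose medians, 68% and 63.2%, lay between the other regimes.

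**Figure D5:**
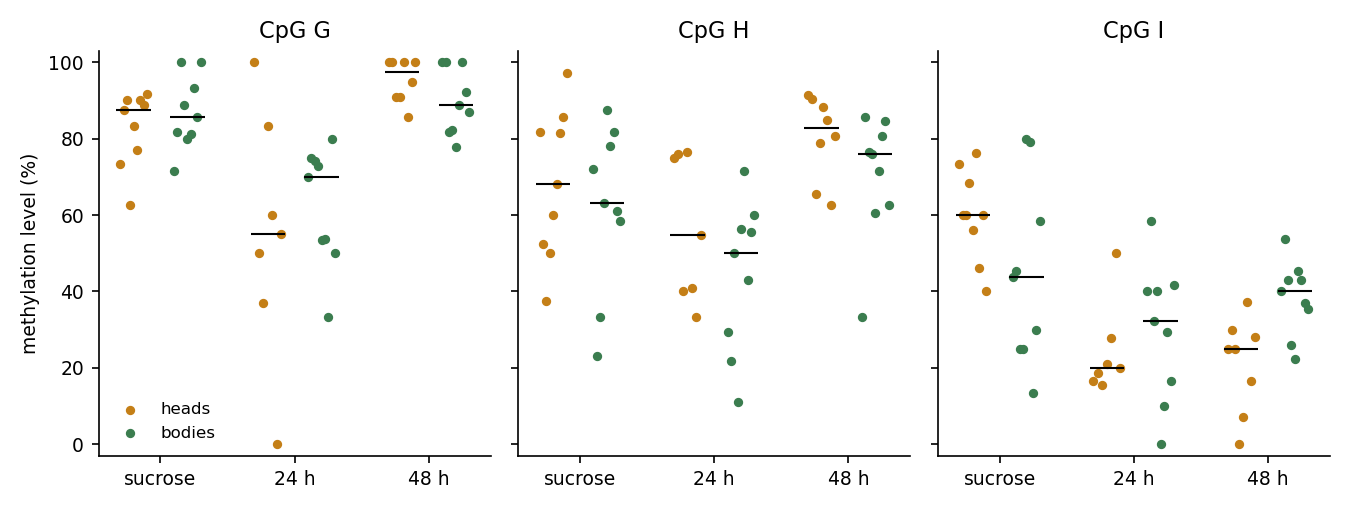
Methylation level (%) in each sample at the 2 isolated CpGs called higher after 48 h than after 24 h of 5-aza-dC (G and H) and at the CpG called lower in heads (I), by regime, heads in orange and bodies in green; lines are medians. In G the 24 h samples lie mostly below those of both other regimes, and in I the head median is 60% in sucrose, 20% at 24 h and 25% at 48 h, while body samples of the 3 regimes overlap.

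Harvest time gave no call at the members. Over 33 samples 0 of 50 members and 0% of 13101 CpGs were called by the quasi-binomial model. At an unadjusted p under 0.05 stood 4 members (8%) and 6.22% of all tested CpGs, and limma called none. In the 16 samples of 24 h, 0 of 760 members and 0% of 52727 CpGs were called, with 44 members (5.79%) at an unadjusted p under 0.05 and none by limma. Over all tested CpGs that share was 5.76%.

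Whether the head minus body difference changed with exposure was fitted as an interaction. The interaction of tissue with exposure over 51 samples called 0 of 50 members and 0% of 13100 CpGs. An unadjusted p under 0.05 was reached by 2 members (4%) and by 5.64% of all tested CpGs. Over the 34 sucrose and 24 h samples the interaction called 0 of 764 members and 0% of 52675 CpGs. There 40 members (5.24%) and 7.12% of all tested CpGs had an unadjusted p under 0.05. Limma called none in either. The median interaction over the 764 members was -0.47 points. The sucrose samples that chose the members enter both fits, so nothing is read from these counts about the members.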

How the data were processed

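The authors deposited, for each CpG and sample, 2 read counts, methylated and total, without normalization. Bisulphite libraries (TruSeq DNA methylation kit, paired reads on a HiSeq) are described per the labels' protocols. The submitters' processing notes name cutadapt 1.12, Bismark 0.16, Bowtie2, SAMtools, methylKit 0.99.3 and R 3.3.1, without their settings. The strand of a CpG is not listed, and only 13 pairs of positions were 1 bp apart. Groups follow the characteristics in the labels. For 9 body samples the title gave another harvest time or none. Replicate numbers follow sample order and pair nothing. Between samples of a group at most 3.99% of 104195 CpGs had identical counts. All 51 columns were used.

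Levels are methylated over total reads, averaged over samples. Tests used CpGs with reads in every sample of the regimes needed, a sucrose mean of at least 10% and a mean coverage of at least 10 reads. A logistic model of the counts, with strata of regime, tissue and harvest time as fits the contrast, was tested by F with the dispersion floored at 1. P-values were adjusted by Benjamini-Hochberg over all tested CpGs. The model was tested on simulated data. Alternatives were limma 3.58.1 (R 4.3.3) on arcsine square roots, other coverage and level limits, no floor, background as a covariate, and fewer samples. Other computing used Python 3.11.15 with scipy 1.17.1 and numpy 2.4.6, and figures matplotlib 3.10.9. Intervals and limits on a count of 0 cover counting error only.

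Named CpGs are, by rule, the members with the 6 largest called tissue differences in each direction, the 3 largest called exposure differences in each, the 3 highest and lowest in 5-aza-dC, the 3 farthest from another and the 2 on either side of the limit. The members, the lists and the tests were chosen with earlier results of these data known. The 24 h and 48 h tests were added after seeing how few members had reads in all samples, and the equal weighting of tissues after seeing the change without it. The labels' protocols call samples of a group biological replicates.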

Additional observations from a re-analysis of the deposited data

Results flagged for a closer look

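Among 132 groups of 7 to 9 samples, made up of the means over members and the named CpGs, 14 held a sample that stood apart from the rest by Dixon's criterion. Chance flags about 1 group in 20, and at levels near 100% a single unmethylated read is enough. Intervals are exact 95% binomial intervals.

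Most were low samples at highly methylated CpGs. Position 9835966 of chromosome 3 had 92.6% (75.7 to 99.1%, 27 reads) in a sucrose head sample, 88.9% (65.3 to 98.6%, 18 reads) in a 24 h head sample and 95.5% (77.2 to 99.9%, 22 reads) in a 24 h body sample. Position 115759 of GL340940 had 98.1% (89.7 to 99.95%, 52 reads) in a 24 h head sample and 91.2% (76.3 to 98.1%, 34 reads) in a 24 h body sample. Position 2183 of GL341249 had 60% (14.7 to 94.7%, 5 reads) in a sucrose head sample and 91.7% (61.5 to 99.8%, 12 reads) in a 24 h body sample. Position 170335 of GL340989 had 88.7% (77.0 to 95.7%, 53 reads) in a 24 h head sample. Position 6693913 of chromosome 3 had 84.6% (54.6 to 98.1%, 13 reads) in a 24 h head sample.

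At CpGs of lower level, position 2799737 of chromosome 4 had 33.3% (7.49 to 70.1%, 9 reads) in a sucrose body sample. Position 20980470 of chromosome 3 had 64.3% (35.1 to 87.2%, 14 reads) in a sucrose head sample. Position 63681 of GL340838 had 33.3% (0.840 to 90.6%, 3 reads) in a 48 h body sample. Position 211617 of GL341044 had 50% (6.76 to 93.2%, 4 reads) in a 24 h head sample, the only one of its group above 27.8%. Position 171640 of GL340966 had 100% (47.8 to 100%, 5 reads) in a 24 h body sample. No sample stood apart in its mean over the members.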

How the results depend on the processing

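The number of members was 850. It was 1212 with a limit of 500 bp and 620 with 2000 bp, and 841 to 855 without 1 sucrose sample; requiring 10 listed neighbours left 255. Head against body calls over 33 samples (14) fell to 3 when CpGs from a sucrose mean of 2% were tested, to 6 without the body samples of uncertain harvest time, to 9 at 2000 bp and to 6 with limma, and rose to 24 when only CpGs of 50% or more were tested; without 1 sample they were 10 to 16. The 24 h calls (15) became 52 without the dispersion floor, 0 from 2%, 121 from 50%, 25 at 500 bp and 2 with limma. They were 0 without the uncertain body samples, 0 with background as a covariate and 0 to 10 without 1 sample. With the sucrose samples added, 254 of 764 members and 5590 of all 52675 tested CpGs were called. The sucrose samples chose the members, so nothing is read from the 254. The 48 h calls (0) became 1 at a mean coverage of 20, 3 without the floor, 15 from 50%, 1 at 500 bp and 0 to 1 without 1 sample. Exposure calls (2) became 1 at a mean coverage of 20, from 2% and without the uncertain body samples, 4 from 50%, and 2 to 3 without 1 sample. Harvest time and interaction calls stayed at 0 under all alternatives run. The fewer or more CpGs tested set part of these changes by construction; otherwise the cause was not tested.

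The head minus body mean stayed between 7.99 and 8.26 points in sucrose, 6.97 and 7.87 at 24 h, and 6.90 and 8.48 at 48 h. The 48 h minus sucrose mean in bodies changed from 0.75 to -1.53 points when the whole background was subtracted. That takes off too much if the background is error. Without 1 sample the mean difference was 0.48 to 1.05. The others without 1 sample were -0.11 to 0.58 (24 h heads), 0.50 to 1.03 (24 h bodies) and -0.26 to 1.01 (48 h heads). Among named CpGs no alternative changed a direction. A call was lost in 47 of 284 refits of the 33-sample tissue test, 94 of 146 of the 24 h test and 2 of 81 of the exposure test. Strand sums were not run, since strands are not listed. No paired analysis was possible because replicate numbers only follow sample order. The settings from 50%, with 10 neighbours and with sucrose added, and all 24 h and 48 h tests, were chosen after seeing the data. At 3 reads, 1 read moves a level by 33.3 points.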
